A study of Mus musculus with 20 samples.

Results

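The data described here are the expression levels of 38 genes of glycolysis and of the response to low oxygen in 20 RNA-seq libraries of cultured mouse colon fibroblasts. The genes were chosen by name, from a list of mouse symbols, and each was matched to an Ensembl gene identifier in the deposited count tables. They are 38 of the 47729 identifiers listed, and all 38 were among the 14820 genes that passed the expression filter. By role they fall into 3 oxygen-sensing genes, 18 genes of glucose uptake and glycolysis, 6 of lactate, pyruvate and pH handling, 3 of glycogen metabolism and 8 other genes known to be induced by hypoxia.

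The fibroblasts came from C57BL6/J mice and were grown on plastic in serum-containing medium. The 5 groups of 4 libraries were fibroblasts given conditioned medium of the irradiated APTKA arm, of the irradiated APTK arm, of APTKA organoids or of APTK organoids, and untreated fibroblasts, which the titles call wild type. Stimulation with conditioned medium lasted 24 h, and the irradiated groups are labelled with 5 doses of 2 Gy. APTKA and APTK are names of organoid lines that the labels do not spell out, and the labels leave unstated whether organoids or fibroblasts received the dose. No group with organoid medium that had not been conditioned, and no irradiated untreated group, was analysed here, so conditioning and the change of medium cannot be told apart. The labels do not tie the libraries of a group, numbered I to IV, to separate animals or cultures, and p-values therefore measure only how far these libraries spread, which may be technical.

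Glycolysis breaks glucose down to pyruvate in the cytosol, and lactate dehydrogenase turns pyruvate into lactate, which monocarboxylate transporters carry out of the cell. Many of these genes are targets of hypoxia-inducible factors, which bind DNA as pairs of an alpha subunit such as HIF1A and the partner ARNT. With oxygen present, prolyl hydroxylases of the Egln family mark the alpha subunit for destruction, so the protein is controlled largely after transcription and the Hif1a mRNA level does not report it. Fibroblasts near tumours are known for high glycolysis and lactate export, and growth and inflammatory signals can raise the same genes while oxygen is plentiful.

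Library totals ranged over 17.3 to 31.6 M counts. The 38 members took 0.475 to 0.526% of all counts in irradiated APTKA medium, 0.416 to 0.467% in irradiated APTK medium, 0.484 to 0.506% in APTKA medium, 0.468 to 0.492% in APTK medium and 0.323 to 0.363% in untreated fibroblasts. The summed level of 8 fibroblast markers, led by the collagen genes, was 27600 to 36861 CPM (counts scaled to a common library total by the TMM method) in irradiated APTKA medium, 38737 to 47886 CPM in irradiated APTK medium, 26853 to 30985 CPM in APTKA medium, 45209 to 50755 CPM in APTK medium and 53235 to 60211 CPM in untreated fibroblasts. The sum thus differed between the media without overlap in the plain groups, and its part in the results on the members was not tested. Summed markers of epithelium reached at most 1.491 CPM and those of leukocytes at most 3.408 CPM in any library, and the T cell gene Cd3e was at 0 in all 20. Those of endothelium lay at 1.585 to 2.113 CPM in irradiated APTKA medium, 0.8067 to 1.319 CPM in irradiated APTK medium, 1.682 to 2.001 CPM in APTKA medium, 0.6913 to 1.146 CPM in APTK medium and 1.979 to 2.999 CPM in untreated fibroblasts. The sum of 5 markers of pericytes and smooth muscle was 310.5 to 338.4 CPM in irradiated APTKA medium, 391.4 to 481.9 CPM in irradiated APTK medium, 295.1 to 322.2 CPM in APTKA medium, 411.6 to 506.3 CPM in APTK medium and 401.6 to 464.2 CPM in untreated fibroblasts. Both APTKA groups thus lay below the other 3 without overlap, and the part of this difference in the results was not tested. Mitochondrial transcripts took 0.442 to 0.586% of counts in irradiated APTKA medium, 0.534 to 1.23% in irradiated APTK medium, 0.404 to 0.598% in APTKA medium, 0.765 to 0.922% in APTK medium and 0.538 to 0.671% in untreated fibroblasts, and the part of this difference in the results was not tested.

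The promoters of the 6 members with the largest rises in either medium are shown first. Hypoxia-inducible factors bind the core letters ACGTG and GCGTG, and the capitals mark every match to these letters or to their reverse complements CACGT and CACGC. Each window runs from 250 bases before to 50 bases after the RefSeq start of the gene (build GRCm38.p6) and is written 5′ to 3′ on the strand of the gene. The windows are chr11:120948817-120949116 (+ strand) for Slc16a3, chr11:78322823-78323122 (+ strand) for Aldoc, chr3:51396498-51396797 (− strand) for Mgarp, chr12:54203825-54204124 (− strand) for Egln3, chr12:70227634-70227933 (− strand) for Pygl and chr7:138909457-138909756 (− strand) for Bnip3.
Slc16a3: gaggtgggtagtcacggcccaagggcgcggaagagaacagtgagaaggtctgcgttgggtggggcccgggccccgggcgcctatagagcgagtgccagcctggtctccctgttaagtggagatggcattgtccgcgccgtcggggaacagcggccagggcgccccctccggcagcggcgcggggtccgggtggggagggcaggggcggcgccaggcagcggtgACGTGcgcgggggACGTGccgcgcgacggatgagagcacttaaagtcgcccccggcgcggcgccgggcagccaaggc
Aldoc: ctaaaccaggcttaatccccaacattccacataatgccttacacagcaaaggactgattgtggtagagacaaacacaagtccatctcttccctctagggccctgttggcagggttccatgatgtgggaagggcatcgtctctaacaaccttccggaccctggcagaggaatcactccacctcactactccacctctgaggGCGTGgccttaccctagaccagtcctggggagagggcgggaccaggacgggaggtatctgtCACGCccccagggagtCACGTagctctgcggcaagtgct
Mgarp: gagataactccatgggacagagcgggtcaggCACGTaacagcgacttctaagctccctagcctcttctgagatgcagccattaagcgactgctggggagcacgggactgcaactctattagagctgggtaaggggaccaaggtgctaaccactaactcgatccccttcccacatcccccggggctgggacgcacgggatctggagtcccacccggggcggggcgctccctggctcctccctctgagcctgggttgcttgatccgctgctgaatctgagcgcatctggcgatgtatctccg
Egln3: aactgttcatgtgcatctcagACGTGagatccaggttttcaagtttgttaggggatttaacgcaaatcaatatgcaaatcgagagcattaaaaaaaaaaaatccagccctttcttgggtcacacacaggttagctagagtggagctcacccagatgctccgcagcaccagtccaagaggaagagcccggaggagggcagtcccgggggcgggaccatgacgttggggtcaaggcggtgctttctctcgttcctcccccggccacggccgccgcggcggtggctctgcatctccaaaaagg
Pygl: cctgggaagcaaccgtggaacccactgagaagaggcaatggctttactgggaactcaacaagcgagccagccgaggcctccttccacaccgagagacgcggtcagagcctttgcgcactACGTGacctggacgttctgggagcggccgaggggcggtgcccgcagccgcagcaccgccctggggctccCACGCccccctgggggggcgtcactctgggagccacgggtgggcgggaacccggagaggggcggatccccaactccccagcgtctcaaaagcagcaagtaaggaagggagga
Bnip3: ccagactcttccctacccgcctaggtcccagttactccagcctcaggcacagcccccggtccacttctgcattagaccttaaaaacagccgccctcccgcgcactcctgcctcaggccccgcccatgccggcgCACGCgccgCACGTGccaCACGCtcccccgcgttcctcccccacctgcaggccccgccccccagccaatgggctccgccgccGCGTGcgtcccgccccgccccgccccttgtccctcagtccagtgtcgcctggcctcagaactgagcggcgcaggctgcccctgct

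Overlapping matches were joined, as in the CACGTG of Bnip3, whose first base lies at −108 from the start. Slc16a3 held its matches close to the start, with first bases at −27 and −14, and Aldoc had matches on either side of it, at −50, 12 and 28. Mgarp and Egln3 each held a single match, far upstream at −219 and −229. Pygl held matches at −131 and −62. Of the 38 members 36 had a promoter in the RefSeq table, Bnip3l and Ndrg1 being the exceptions, and 26 of the 36 (72.2%) held at least 1 match, against 11848 of 27025 genes in the table (43.8%). The share was 15 of 21 (71.4%) among members higher in APTKA medium than in untreated fibroblasts, and 7 of 9 (77.8%) among members that did not pass the test there. A match is a description of letters and not evidence of binding.

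In APTKA medium more of the 38 genes were higher than lower. Relative to untreated fibroblasts 21 members rose and 8 fell, while 31.5% of all genes tested rose and 29.9% fell (edgeR quasi-likelihood test on the deposited counts, false discovery rate 5%). The median log2 fold change was 0.33 over the members and 0.00 over all genes tested. By at least 2-fold, 6 members rose and 1 fell, against 5.13% and 7.43% of all genes. Rises were largest for the lactate exporter Slc16a3, the prolyl hydroxylase Egln3, the mitochondrial protein gene Mgarp and the mitophagy receptor Bnip3, and the fall was largest for the stress-responsive gene Ndrg1. In bulk RNA, a change in the amount of a transcript per cell cannot be told apart from a change in the share of cells that make it.

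In APTK medium the tilt of the members was greater, while fewer genes passed the test overall. Relative to untreated fibroblasts 28 members rose and 3 fell, against 20.9% and 22.5% of all genes tested. The median log2 fold change of the members was 0.66, against 0.00 over all genes. By at least 2-fold, 11 members rose and 1 fell, against 3.88% and 2.48% of all genes. Slc16a3, the aldolase Aldoc, Mgarp, the glycogen phosphorylase Pygl and Bnip3 rose most, and Ndrg1 again fell most.

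Set directly against APTK medium, APTKA medium gave lower levels for most members. Relative to APTK medium 5 members were higher in APTKA medium and 23 were lower, against 31.1% and 31.8% of all genes tested. The median log2 fold change was −0.28 over the members and −0.03 over all genes. Egln3, the glycogen branching enzyme Gbe1, Hif1a, the pyruvate kinase Pkm and the hexokinase Hk2 were the 5 higher members. By at least 2-fold, 1 member (Egln3) was higher and 4 (Aldoc, Pygl, Ankrd37 and Pdk1) were lower, against 4.16% and 7.69% of all genes.

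The comparisons of each medium with untreated fibroblasts share the 4 untreated libraries, so their calls are set side by side and not counted as agreement. In both, 18 members were called higher, and Ndrg1, Gbe1 and the lactate transporter Slc16a1 were called lower, against 9.62% and 12.2% of all genes tested. Eno1, Hif1a and Pkm passed the test as higher in APTKA medium and did not pass it in APTK medium, as did 16.9% of all genes. Set directly against APTK medium, Hif1a and Pkm were called higher in APTKA medium, and Eno1 was not called. Aldoc, Ankrd37, Eno2, Gapdh and Pdk1 passed as higher in APTK medium and did not pass in APTKA medium, as did 7.46% of all genes. The 5 members Bnip3l, Egln1, Gpi1, Pfkm and Pfkp were called lower in APTKA medium and higher in APTK medium, as were 3.84% of all genes. The carbonic anhydrase genes Car12 and Car9, Hk2 and the histone demethylase gene Kdm3a passed neither test, and 25.9% of all genes passed neither.

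**Figure D1:**
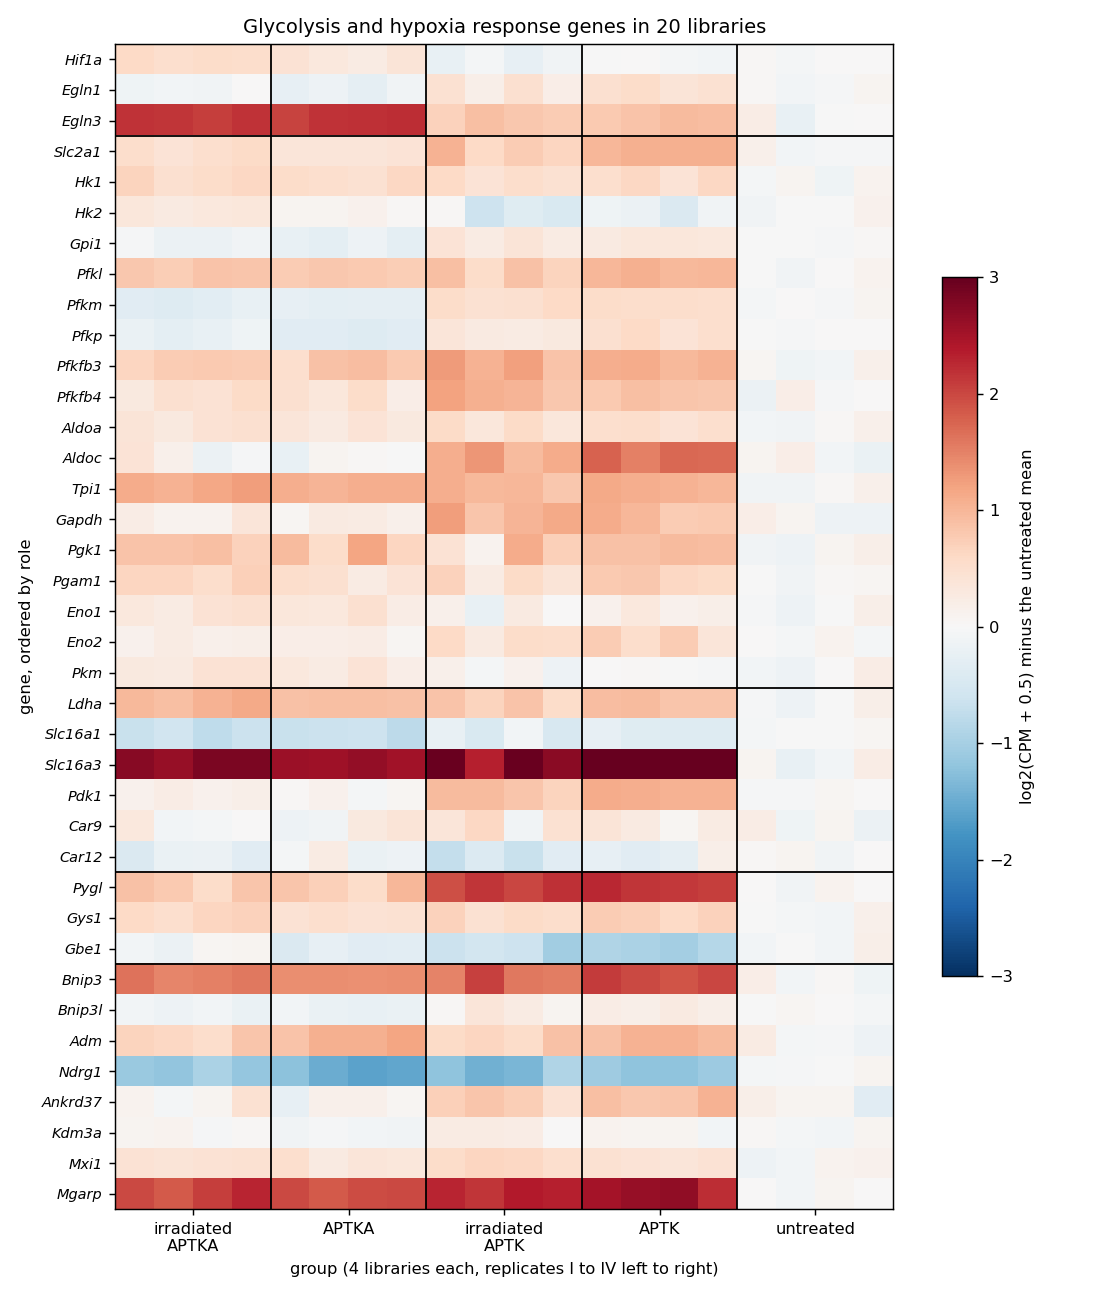
Expression of the 38 members (rows, ordered by role from oxygen sensing at the top to other hypoxia-induced genes at the bottom) in the 20 libraries (columns, 4 per group), as log2(CPM + 0.5) minus the mean of the 4 untreated libraries. Red is higher and blue lower than in untreated fibroblasts; Slc16a3, Mgarp and Bnip3 are red in all 4 medium groups, Egln3 is strongest in both APTKA groups, and Ndrg1 is blue in all 4.

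**Figure D2:**
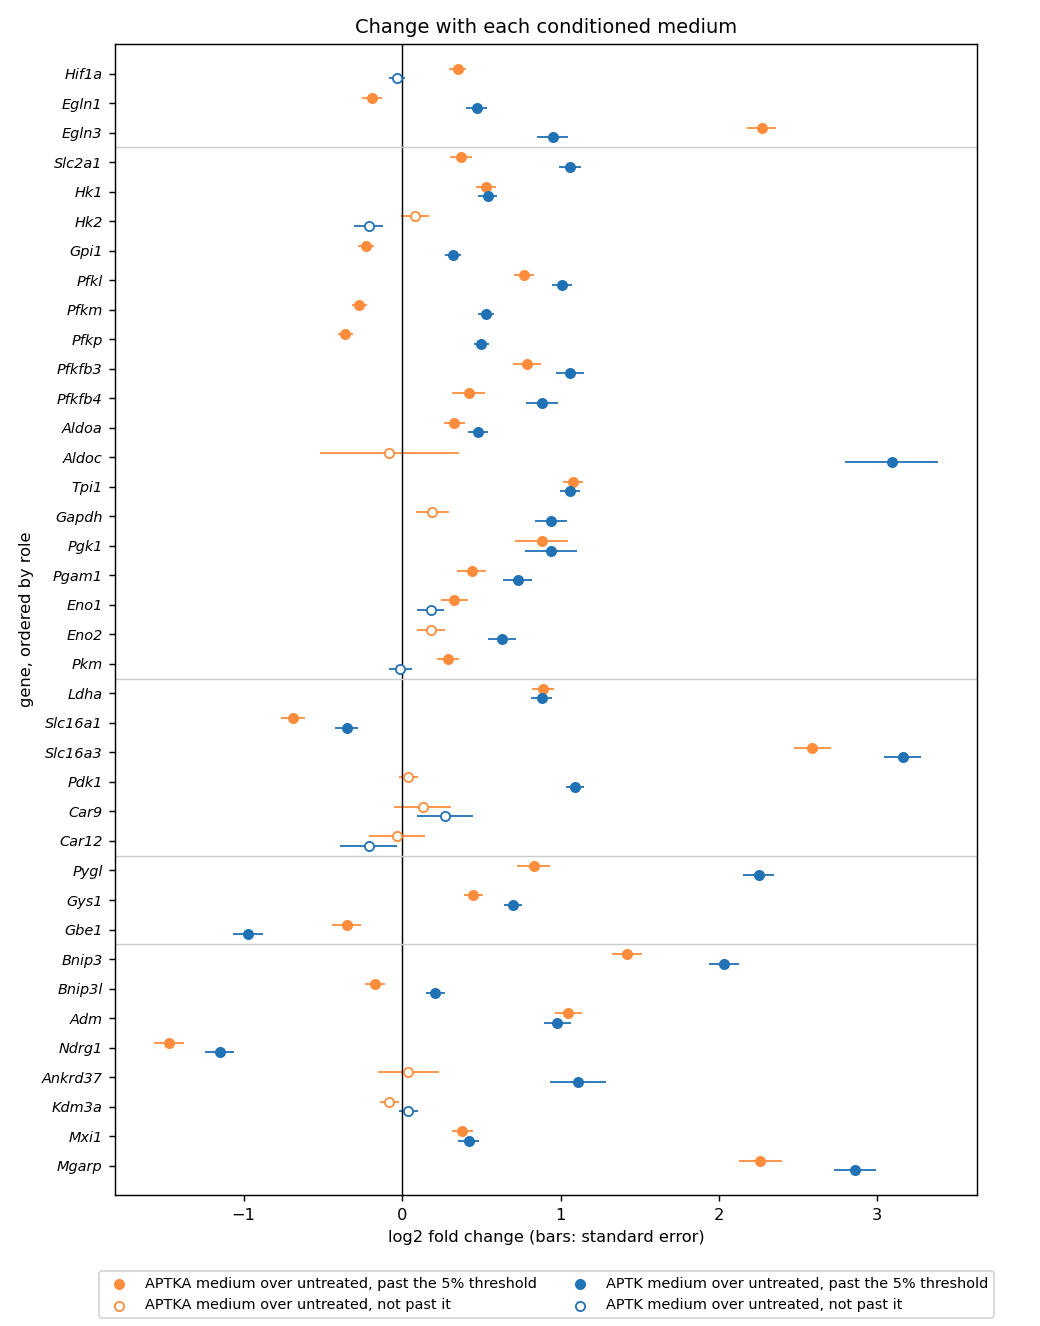
Log2 fold change with its standard error for each of the 38 members in APTKA medium over untreated fibroblasts (orange) and in APTK medium over untreated fibroblasts (blue). Filled points passed the 5% threshold and open points did not; 21 members lie to the right with a filled orange point and 28 with a filled blue point.

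The 3 oxygen-sensing genes each differed between the media, where 31.1% of all genes tested were higher and 31.8% lower in APTKA medium. Egln3 encodes a prolyl hydroxylase that is itself a known target of hypoxia-inducible factors. It had 17, 18.8, 19.2 and 19.6 CPM in APTKA medium, 6.95, 7.38, 7.79 and 7.72 CPM in APTK medium, and 4.56, 3.19, 3.79 and 3.85 CPM in untreated fibroblasts. All APTKA libraries lay far above all APTK libraries, and these in turn lay above all untreated ones. Egln3 rose by a log2 fold change of 2.27 ± 0.0918 (SE) in APTKA medium over untreated fibroblasts (edgeR adjusted p = 1.19e-17) and by 0.95 ± 0.0977 in APTK medium (edgeR adjusted p = 9.3e-09). Between the media the difference was 1.32 ± 0.0845 (edgeR adjusted p = 2.31e-13), the largest rise of any member in APTKA medium over APTK medium.

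Hif1a, the gene of the regulated alpha subunit, was abundant throughout. It had 550, 507, 481 and 530 CPM in APTKA medium, 402, 411, 392 and 383 CPM in APTK medium, and 418, 390, 408 and 406 CPM in untreated fibroblasts. The APTKA libraries stood above all others, and the APTK and untreated libraries overlapped. Hif1a had a log2 fold change of 0.35 ± 0.0515 (SE) in APTKA medium over untreated fibroblasts (edgeR adjusted p = 1.18e-06) and 0.38 ± 0.0515 in APTKA medium over APTK medium (edgeR adjusted p = 3.23e-07). In APTK medium over untreated fibroblasts it was −0.03 ± 0.0515 (edgeR adjusted p = 0.675). Egln1, the prolyl hydroxylase that acts as the main oxygen sensor in most cells, averaged 59.7 ± 3.20 CPM in APTKA medium, 94.8 ± 4.09 CPM in APTK medium and 68.3 ± 3.29 CPM in untreated fibroblasts (SD, n = 4 each). It therefore went the opposite way to Hif1a between the media, with all APTKA libraries below all APTK libraries. Part of the exon length of Hif1a (5.6%) overlaps a gene on the opposite strand, and the strand setting of the counting is not given in the sources used here.

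Glucose enters through the transporter of Slc2a1 and is trapped by the hexokinases Hk1 and Hk2. Slc2a1 had 59.4, 59.3, 59.3 and 60.9 CPM in APTKA medium, 93, 97.6, 96.5 and 96.6 CPM in APTK medium, and 51, 43.6, 45.2 and 44.7 CPM in untreated fibroblasts. The 3 groups did not overlap, and APTKA medium lay between the others. Slc2a1 had a log2 fold change of 0.37 ± 0.0706 (SE) in APTKA medium over untreated fibroblasts (edgeR adjusted p = 4.54e-05) and 1.06 ± 0.0703 in APTK medium over untreated fibroblasts (edgeR adjusted p = 3.03e-12). Between the media Slc2a1 differed by −0.68 ± 0.0692 (edgeR adjusted p = 1.97e-09).

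Hk1, the hexokinase most tissues make at all times, averaged 129 ± 6.10 CPM in APTKA medium, 130 ± 9.22 CPM in APTK medium and 89.4 ± 6.62 CPM in untreated fibroblasts (SD, n = 4 each), and it rose in both media. Hk2, the hexokinase usually counted among hypoxia targets, did not follow it. It had 53.3, 53, 55.2 and 51.7 CPM in APTKA medium, 46, 44.4, 37.1 and 46.7 CPM in APTK medium, and 46.9, 50, 49.9 and 54.7 CPM in untreated fibroblasts. The APTK libraries were the lowest, just below the untreated ones, while APTKA and untreated libraries overlapped. Hk2 had a log2 fold change of 0.08 ± 0.0898 (SE) in APTKA medium over untreated fibroblasts (edgeR adjusted p = 0.454) and −0.21 ± 0.0906 in APTK medium over untreated fibroblasts (edgeR adjusted p = 0.0629). Between the media it was 0.29 ± 0.0903 (edgeR adjusted p = 0.00706).

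Of the 18 genes of glucose uptake and glycolysis, 11 rose and 3 fell in APTKA medium relative to untreated fibroblasts, with a median log2 fold change of 0.33. The shares of all genes tested were 31.5% and 29.9%. In APTK medium 15 rose and the other 3, Hk2, Eno1 and Pkm, did not pass the test, with a median of 0.68. There 20.9% of all genes rose and 22.5% fell. In APTKA medium relative to APTK medium 2 were higher and 12 lower, against 31.1% and 31.8% of all genes, with a median of −0.28. The members that moved include nearly every step of the pathway, and the isoenzymes of a step did not always move together.

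The phosphofructokinase step shows this split. Pfkl, the liver type, averaged 193 ± 2.94 CPM in APTKA medium, 227 ± 7.15 CPM in APTK medium and 113 ± 7.44 CPM in untreated fibroblasts (SD, n = 4 each), and rose in both media. Pfkp, the platelet type, had 79, 78.2, 76.5 and 78.2 CPM in APTKA medium, 139, 150, 133 and 141 CPM in APTK medium, and 98.9, 97.7, 101 and 101 CPM in untreated fibroblasts. Its libraries formed separate ranges, with APTKA medium lowest and APTK medium highest. In APTKA medium over untreated fibroblasts Pfkp fell by 0.36 ± 0.0475 (SE) on the log2 scale (edgeR adjusted p = 2.56e-07), and in APTK medium it rose by 0.50 ± 0.0471 (edgeR adjusted p = 2.35e-09). The muscle type Pfkm behaved in the same directions, with 54.4 ± 0.58 CPM in APTKA medium, 94.9 ± 1.40 CPM in APTK medium and 65.7 ± 2.83 CPM in untreated fibroblasts (SD, n = 4 each). Glucose phosphate isomerase Gpi1, which acts just before phosphofructokinase, averaged 150 ± 7.41 CPM in APTKA medium, 220 ± 5.24 CPM in APTK medium and 176 ± 4.38 CPM in untreated fibroblasts, and was called lower in APTKA medium and higher in APTK medium, each relative to untreated fibroblasts.

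Pfkfb3 and Pfkfb4 make the sugar phosphate that activates phosphofructokinase. Pfkfb3 averaged 52.9 ± 6.51 CPM in APTKA medium, 63.6 ± 2.47 CPM in APTK medium and 30.5 ± 2.76 CPM in untreated fibroblasts (SD, n = 4 each), and Pfkfb4 averaged 9.37 ± 1.04 CPM in APTKA medium, 12.9 ± 0.454 CPM in APTK medium and 7.03 ± 0.794 CPM in untreated fibroblasts. Both rose in both media, and both were lower in APTKA medium than in APTK medium.

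The aldolases differed in abundance and in response. Aldoa, the main form here, averaged 664 ± 28.5 CPM in APTKA medium, 737 ± 25.9 CPM in APTK medium and 527 ± 43.3 CPM in untreated fibroblasts (SD, n = 4 each) and rose in both media. Aldoc, the brain form, was close to the detection limit, with 0.101, 0.245, 0.218 and 0.196 CPM in APTKA medium, 1.88, 1.49, 1.79 and 1.78 CPM in APTK medium, and 0.24, 0.302, 0.156 and 0.112 CPM in untreated fibroblasts. The APTK libraries stood apart and the APTKA and untreated libraries overlapped. In all, 20 reads of Aldoc were counted in APTKA medium, 179 in APTK medium and 20 in untreated fibroblasts. Aldoc had a log2 fold change of 3.09 ± 0.294 (SE) in APTK medium over untreated fibroblasts (edgeR adjusted p = 2.36e-09) and −3.18 ± 0.293 in APTKA medium over APTK medium (edgeR adjusted p = 3.3e-10).

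Tpi1, triosephosphate isomerase, rose to the same extent in both media. It had 368, 352, 366 and 369 CPM in APTKA medium, 378, 366, 355 and 344 CPM in APTK medium, and 160, 161, 177 and 192 CPM in untreated fibroblasts. The media overlapped each other and lay well above the untreated libraries. Tpi1 had a log2 fold change of 1.08 ± 0.0615 (SE) in APTKA medium (edgeR adjusted p = 1.71e-14) and 1.06 ± 0.0615 in APTK medium (edgeR adjusted p = 1.83e-13), each over untreated fibroblasts.

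Gapdh and Pgk1 catalyse the next steps and share much of their sequence with processed pseudogenes, so their counts are uncertain. Of all 50-base stretches of their exons, 82.5% in Gapdh and 68% in Pgk1 also occur in another annotated gene, and the share was 72.2% in Eno1, 41.5% in Pgam1 and 34.4% in Pkm. Gapdh, usually among the most abundant messages of a cell, had only 14.4, 16.8, 16.4 and 15.3 CPM in APTKA medium, 30.1, 28.1, 23.6 and 24 CPM in APTK medium, and 15.9, 14.6, 12.4 and 12.4 CPM in untreated fibroblasts. APTK libraries were highest, and APTKA and untreated libraries overlapped. Gapdh had a log2 fold change of 0.94 ± 0.1 (SE) in APTK medium over untreated fibroblasts (edgeR adjusted p = 2.02e-08), 0.19 ± 0.103 in APTKA medium over untreated fibroblasts (edgeR adjusted p = 0.119) and −0.75 ± 0.0989 in APTKA medium over APTK medium (edgeR adjusted p = 2.16e-07).

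Pgk1, phosphoglycerate kinase, had 17.8, 13.4, 21.2 and 14.4 CPM in APTKA medium, 16.9, 16.9, 17.9 and 17.7 CPM in APTK medium, and 8.32, 8.11, 9.49 and 10.3 CPM in untreated fibroblasts. Both media lay above all untreated libraries and overlapped each other. Pgk1 had a log2 fold change of 0.88 ± 0.165 (SE) in APTKA medium (edgeR adjusted p = 0.000102) and 0.94 ± 0.165 in APTK medium (edgeR adjusted p = 0.000102), each over untreated fibroblasts. Between the media it was −0.06 ± 0.157 (edgeR adjusted p = 0.758), and it changed sign to 0.04 without APTKA replicate II and to 0.01 without APTKA replicate IV.

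Phosphoglycerate mutase Pgam1 averaged 14.4 ± 1.26 CPM in APTKA medium, 17.7 ± 1.57 CPM in APTK medium and 10.7 ± 0.549 CPM in untreated fibroblasts (SD, n = 4 each), and rose in both media. The enolase Eno1 averaged 166 ± 11.9 CPM in APTKA medium, 150 ± 9.08 CPM in APTK medium and 132 ± 12.1 CPM in untreated fibroblasts and rose in APTKA medium. Between the media the log2 fold change of Eno1 was 0.15 ± 0.0835 (SE) and did not pass the test (edgeR adjusted p = 0.121). The neuronal enolase Eno2 averaged 15.4 ± 0.885 CPM in APTKA medium, 21.1 ± 2.86 CPM in APTK medium and 13.6 ± 0.763 CPM in untreated fibroblasts, and rose in APTK medium. The pyruvate kinase Pkm averaged 971 ± 57.8 CPM in APTKA medium, 792 ± 15.8 CPM in APTK medium and 796 ± 88.7 CPM in untreated fibroblasts, and rose in APTKA medium. Its log2 fold change of APTKA medium over APTK medium was 0.29 ± 0.0722 (SE; edgeR adjusted p = 0.00091).

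**Figure D3:**
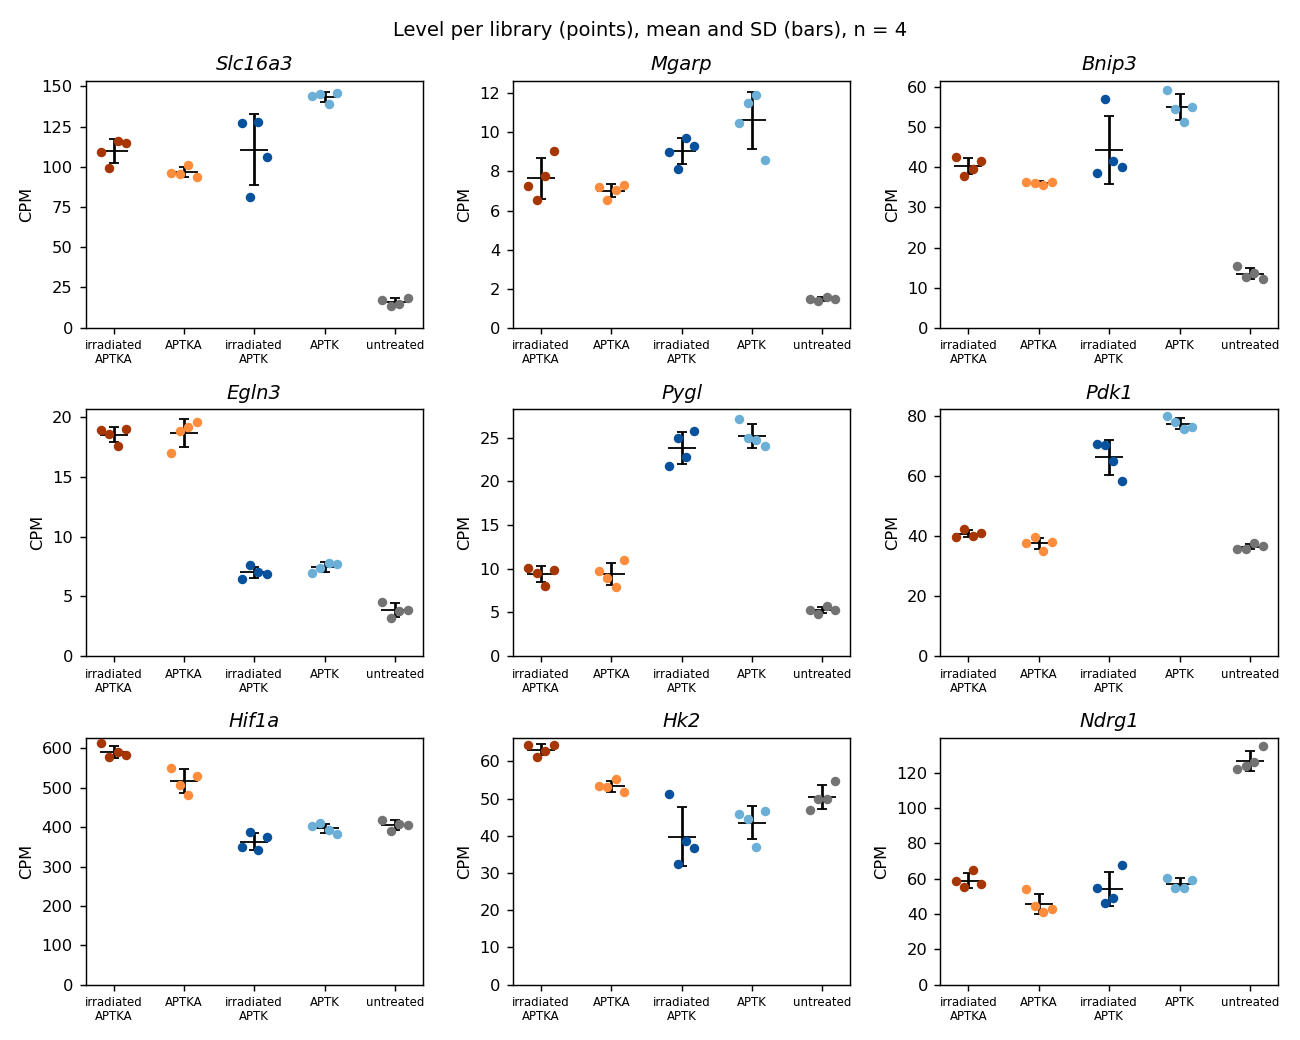
Level of 9 members in CPM (vertical axes, each starting at 0) in the 4 libraries of each group (points), with the mean and SD (bars). The untreated libraries are lowest for Slc16a3, Mgarp, Bnip3, Egln3 and Pygl and highest for Ndrg1, while Pdk1 is raised in both APTK groups and Egln3 and Hif1a in both APTKA groups.

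Among the 6 genes of lactate, pyruvate and pH handling, 2 rose and 1 fell in APTKA medium and 3 rose and 1 fell in APTK medium, each relative to untreated fibroblasts. Of all genes tested, 31.5% rose and 29.9% fell in APTKA medium, and 20.9% rose and 22.5% fell in APTK medium. With 6 genes, the counts in APTKA medium were near those shares. The largest rise of any member in either medium was that of Slc16a3, which encodes MCT4, the transporter that exports lactate from glycolytic cells. It had 96.4, 95.7, 101 and 93.7 CPM in APTKA medium, 144, 145, 139 and 146 CPM in APTK medium, and 17, 13.6, 14.9 and 18.6 CPM in untreated fibroblasts. The groups were far apart, with APTK medium highest. Slc16a3 had a log2 fold change of 2.59 ± 0.115 (SE) in APTKA medium over untreated fibroblasts (edgeR adjusted p = 3.57e-14) and 3.16 ± 0.116 in APTK medium over untreated fibroblasts (edgeR adjusted p = 1.72e-14). Between the media it was −0.57 ± 0.102 (edgeR adjusted p = 5.54e-05).

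Slc16a1 encodes MCT1, a transporter that carries lactate in either direction. It had 20.3, 20.6, 20.8 and 18.5 CPM in APTKA medium, 27.5, 25.1, 24.9 and 24.6 CPM in APTK medium, and 31.3, 32.3, 32.3 and 34 CPM in untreated fibroblasts. Untreated libraries were highest and APTKA libraries lowest, and the ranges did not overlap. Slc16a1 fell by 0.69 ± 0.075 (SE) on the log2 scale in APTKA medium (edgeR adjusted p = 6.26e-09) and by 0.35 ± 0.074 in APTK medium (edgeR adjusted p = 0.000378), each relative to untreated fibroblasts.

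Ldha, the lactate dehydrogenase subunit that favours lactate formation, rose alike in both media. It had 438, 444, 447 and 436 CPM in APTKA medium, 449, 457, 425 and 421 CPM in APTK medium, and 233, 215, 237 and 269 CPM in untreated fibroblasts. The media overlapped each other and stood clear of the untreated libraries. Ldha had a log2 fold change of 0.89 ± 0.0674 (SE) in APTKA medium (edgeR adjusted p = 6.46e-12) and 0.88 ± 0.0674 in APTK medium (edgeR adjusted p = 4.99e-11), each over untreated fibroblasts.

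Pdk1, a kinase that inhibits pyruvate dehydrogenase, separated the media. It had 37.5, 39.7, 34.9 and 37.8 CPM in APTKA medium, 79.8, 77.9, 75.5 and 76.2 CPM in APTK medium, and 35.7, 35.8, 37.7 and 36.6 CPM in untreated fibroblasts. The APTK libraries stood alone and the APTKA libraries straddled the untreated ones. Pdk1 had a log2 fold change of 1.09 ± 0.0572 (SE) in APTK medium over untreated fibroblasts (edgeR adjusted p = 3.15e-14), 0.04 ± 0.0582 in APTKA medium over untreated fibroblasts (edgeR adjusted p = 0.571) and −1.05 ± 0.057 in APTKA medium over APTK medium (edgeR adjusted p = 8.62e-15).

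Car9 and Car12 encode membrane carbonic anhydrases that act in pH handling at the cell surface, and Car9 is a widely used marker of hypoxia. Car9 was low, with 2.32, 2.42, 3.39 and 3.65 CPM in APTKA medium, 3.61, 3.33, 2.78 and 3.23 CPM in APTK medium, and 3.2, 2.37, 2.85 and 2.28 CPM in untreated fibroblasts. All 3 groups overlapped. Car9 had a log2 fold change of 0.13 ± 0.18 (SE) in APTKA medium over untreated fibroblasts (edgeR adjusted p = 0.562), 0.27 ± 0.178 in APTK medium over untreated fibroblasts (edgeR adjusted p = 0.223) and −0.15 ± 0.175 in APTKA medium over APTK medium (edgeR adjusted p = 0.478). The groups held 309 reads in APTKA medium, 333 in APTK medium and 269 in untreated fibroblasts, which limits how small a change could be detected. Car12 lay at 1.63 ± 0.306 CPM in APTKA medium, 1.46 ± 0.333 CPM in APTK medium and 1.68 ± 0.12 CPM in untreated fibroblasts (SD, n = 4 each), and also passed no test between these groups.

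The 3 glycogen genes were called in both media and not all in the same direction. Relative to untreated fibroblasts, 31.5% of all genes tested were higher and 29.9% lower in APTKA medium, and 20.9% and 22.5% in APTK medium. Pygl, the liver-type phosphorylase that releases glucose units from glycogen, had 9.72, 8.94, 7.92 and 11 CPM in APTKA medium, 27.1, 25, 24.7 and 24 CPM in APTK medium, and 5.32, 4.83, 5.7 and 5.3 CPM in untreated fibroblasts. The groups did not overlap and APTK medium was by far the highest. Pygl had a log2 fold change of 2.25 ± 0.0962 (SE) in APTK medium over untreated fibroblasts (edgeR adjusted p = 6.54e-16), 0.83 ± 0.102 in APTKA medium over untreated fibroblasts (edgeR adjusted p = 6.05e-08) and −1.42 ± 0.0897 in APTKA medium over APTK medium (edgeR adjusted p = 1.71e-13).

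The muscle-type glycogen synthase Gys1 averaged 85.8 ± 1.85 CPM in APTKA medium, 102 ± 4.97 CPM in APTK medium and 62.7 ± 4.48 CPM in untreated fibroblasts (SD, n = 4 each), and rose in both media. Gbe1, which places the branches of glycogen, had 13.3, 15.1, 14.1 and 14.4 CPM in APTKA medium, 9.49, 9.06, 8.63 and 9.68 CPM in APTK medium, and 17.1, 17.8, 17.1 and 20.4 CPM in untreated fibroblasts. Here the untreated libraries were highest and the APTK libraries lowest. Gbe1 fell by 0.35 ± 0.0913 (SE) on the log2 scale in APTKA medium (edgeR adjusted p = 0.00163) and by 0.97 ± 0.0949 in APTK medium (edgeR adjusted p = 3.78e-09), each relative to untreated fibroblasts. Between the media it was higher in APTKA medium, by 0.62 ± 0.0959 (edgeR adjusted p = 2.42e-06).

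Of the 8 other hypoxia-induced genes, 4 rose and 2 fell in APTKA medium and 6 rose and 1 fell in APTK medium, each relative to untreated fibroblasts. The shares of all genes tested were 31.5% and 29.9% in APTKA medium, and 20.9% and 22.5% in APTK medium. Bnip3, a receptor that directs mitochondria to autophagy, had 36.4, 36.2, 35.6 and 36.3 CPM in APTKA medium, 59.2, 54.5, 51.4 and 55.1 CPM in APTK medium, and 15.4, 12.7, 13.7 and 12.2 CPM in untreated fibroblasts. Its 3 groups were well separated. Bnip3 had a log2 fold change of 1.42 ± 0.0946 (SE) in APTKA medium over untreated fibroblasts (edgeR adjusted p = 8.94e-13) and 2.03 ± 0.094 in APTK medium over untreated fibroblasts (edgeR adjusted p = 6.71e-15). Its relative Bnip3l averaged 50.1 ± 2.42 CPM in APTKA medium, 65.4 ± 2.05 CPM in APTK medium and 56.6 ± 2.23 CPM in untreated fibroblasts (SD, n = 4 each), a fall in APTKA medium and a rise in APTK medium. Of the 50-base stretches of their exons, 21.9% in Bnip3 and 23.4% in Bnip3l occur in another annotated gene.

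Mgarp, which encodes a mitochondrial protein known to be induced by hypoxia, was low but clearly separated. It had 7.2, 6.52, 7.05 and 7.29 CPM in APTKA medium, 10.5, 11.5, 11.9 and 8.61 CPM in APTK medium, and 1.48, 1.34, 1.56 and 1.46 CPM in untreated fibroblasts. All untreated libraries lay far below both media. Mgarp had a log2 fold change of 2.26 ± 0.135 (SE) in APTKA medium (edgeR adjusted p = 4.73e-14) and 2.86 ± 0.131 in APTK medium (edgeR adjusted p = 2.21e-15), each over untreated fibroblasts.

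Adm encodes adrenomedullin, a secreted peptide that widens vessels. It had 61.4, 70.5, 71 and 76.7 CPM in APTKA medium, 61.8, 69.8, 69.3 and 65 CPM in APTK medium, and 39.9, 32.2, 32.9 and 29.9 CPM in untreated fibroblasts. The media overlapped each other, above all untreated libraries. Adm had a log2 fold change of 1.05 ± 0.086 (SE) in APTKA medium (edgeR adjusted p = 7.25e-11) and 0.98 ± 0.0861 in APTK medium (edgeR adjusted p = 1.28e-09), each over untreated fibroblasts.

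Ndrg1, a gene commonly induced by hypoxia and other stresses, went the other way. It had 53.9, 44.8, 41.3 and 42.6 CPM in APTKA medium, 60.5, 54.7, 54.6 and 59.1 CPM in APTK medium, and 122, 124, 126 and 135 CPM in untreated fibroblasts. Every library in medium lay far below every untreated library. Ndrg1 fell by 1.47 ± 0.0929 (SE) on the log2 scale in APTKA medium (edgeR adjusted p = 2.4e-12) and by 1.15 ± 0.0918 in APTK medium (edgeR adjusted p = 7.78e-10), each relative to untreated fibroblasts.

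Ankrd37, a small ankyrin-repeat gene known as a target of hypoxia-inducible factors, had 1.08, 1.58, 1.57 and 1.45 CPM in APTKA medium, 3, 2.75, 2.82 and 3.31 CPM in APTK medium, and 1.6, 1.47, 1.48 and 0.971 CPM in untreated fibroblasts. The APTK libraries stood above all others. Ankrd37 had a log2 fold change of 1.11 ± 0.174 (SE) in APTK medium over untreated fibroblasts (edgeR adjusted p = 8.78e-06) and −1.07 ± 0.172 in APTKA medium over APTK medium (edgeR adjusted p = 4.69e-06). Opposite-strand genes overlap 26.4% of its exon length, so these reads may in part be theirs. Mxi1, an antagonist of MYC, averaged 29.6 ± 2.18 CPM in APTKA medium, 30.5 ± 0.837 CPM in APTK medium and 22.8 ± 2.17 CPM in untreated fibroblasts (SD, n = 4 each) and rose in both media. Kdm3a averaged 62.6 ± 1.60 CPM in APTKA medium, 68.4 ± 4.11 CPM in APTK medium and 66.3 ± 3.72 CPM in untreated fibroblasts and passed no test between these groups.

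Per kilobase of exon, the most abundant members in untreated fibroblasts were Aldoa at 181 CPM per kb, Pkm at 159 CPM per kb and Ldha at 72 CPM per kb, followed by Hif1a at 68.7 and Tpi1 at 62.7 CPM per kb. In APTK medium the same scale gave 253 for Aldoa, 158 for Pkm, 132 for Ldha, 131 for Tpi1 and 67.3 for Hif1a. In APTKA medium it gave 228 for Aldoa, 194 for Pkm, 133 for Ldha, 132 for Tpi1 and 87.7 for Hif1a. Ldha and Tpi1 are neighbours in that order in either medium and stood about level with each other. Aldoc and Car12 were at the bottom in all 3 groups, at 0.0582 and 0.215 CPM per kb in APTKA medium, 0.532 and 0.192 CPM per kb in APTK medium, and 0.0621 and 0.222 CPM per kb in untreated fibroblasts. Gapdh, at 3.80 CPM per kb in APTKA medium, 6.39 in APTK medium and 3.34 in untreated fibroblasts, lay far below Tpi1 on this scale, and below the next enzyme Pgk1 at 7.44 CPM per kb in APTKA medium, 7.73 in APTK medium and 4.04 in untreated fibroblasts. Sequence shared with other genes (82.5% of 50-base stretches in Gapdh, 72.2% in Eno1, 68% in Pgk1, 41.5% in Pgam1, 34.4% in Pkm, 7.5% in Tpi1) may lower such counts. The places of these genes in the order are therefore uncertain, and low values do not show that their messages are scarce.

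Ratios of related genes within a library do not depend on the scaling between libraries, and 11 such pairs were formed from counts per exon length. Slc16a3 made up 80% of the sum of Slc16a3 and Slc16a1 in APTKA medium (79.4 to 80.8% over 4 libraries), 82.4% in APTK medium (81.4 to 83.1%) and 29.1% in untreated fibroblasts (26 to 31.3%). The dominant monocarboxylate transporter message of this pair was thus the exporter in both media and Slc16a1 in untreated cells. Bnip3 made up 55.1% of the sum with Bnip3l in APTKA medium (53.6 to 55.9%), 58.9% in APTK medium (56.3 to 60.6%) and 28.9% in untreated fibroblasts (26.8 to 31.9%). Egln3 made up 29.7% of the sum with Egln1 in APTKA medium (28.4 to 31.5%), 9.64% in APTK medium (8.93 to 10.5%) and 7.08% in untreated fibroblasts (6.27 to 8.13%). For these 3 pairs the ranges of the 3 groups did not overlap.

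Among the enzyme pairs, Hk2 made up 37.1% of the sum with Hk1 in APTKA medium (35.1 to 39.1%), 32.4% in APTK medium (30.9 to 34.3%) and 44.6% in untreated fibroblasts (43.2 to 46.5%). Pfkp made up 16.8% of the sum with Pfkl in APTKA medium (16.4 to 17.1%), 23.6% in APTK medium (23.1 to 23.9%) and 30.6% in untreated fibroblasts (29.1 to 31.8%). Pfkm made up 36% of the sum with Pfkl in APTKA medium, 45.5% in APTK medium and 53.8% in untreated fibroblasts. The liver type Pfkl thus gained on both other types in both media, and most in APTKA medium. Pygl remained a minor partner of the brain-type phosphorylase Pygb, at 3.9% in APTKA medium, 7.05% in APTK medium and 1.69% in untreated fibroblasts. Ldha made up 96.4% of the sum with Ldhb in APTKA medium, 95.4% in APTK medium and 93.8% in untreated fibroblasts, a difference in log2 ratio from untreated cells of 0.80 in APTKA medium and 0.45 in APTK medium. The corresponding differences were 1.23 and 2.14 for Pygl to Pygb, and −0.45 and −0.75 for Hk2 to Hk1. In APTK medium Aldoc to Aldoa had the largest difference of the enzyme pairs, 2.58, and in APTKA medium its difference was −0.40, both on few Aldoc reads. Eno2 to Eno1 differed by −0.16 in APTKA medium and 0.43 in APTK medium, and Pfkfb4 to Pfkfb3 by −0.38 and −0.19.

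**Figure D4:**
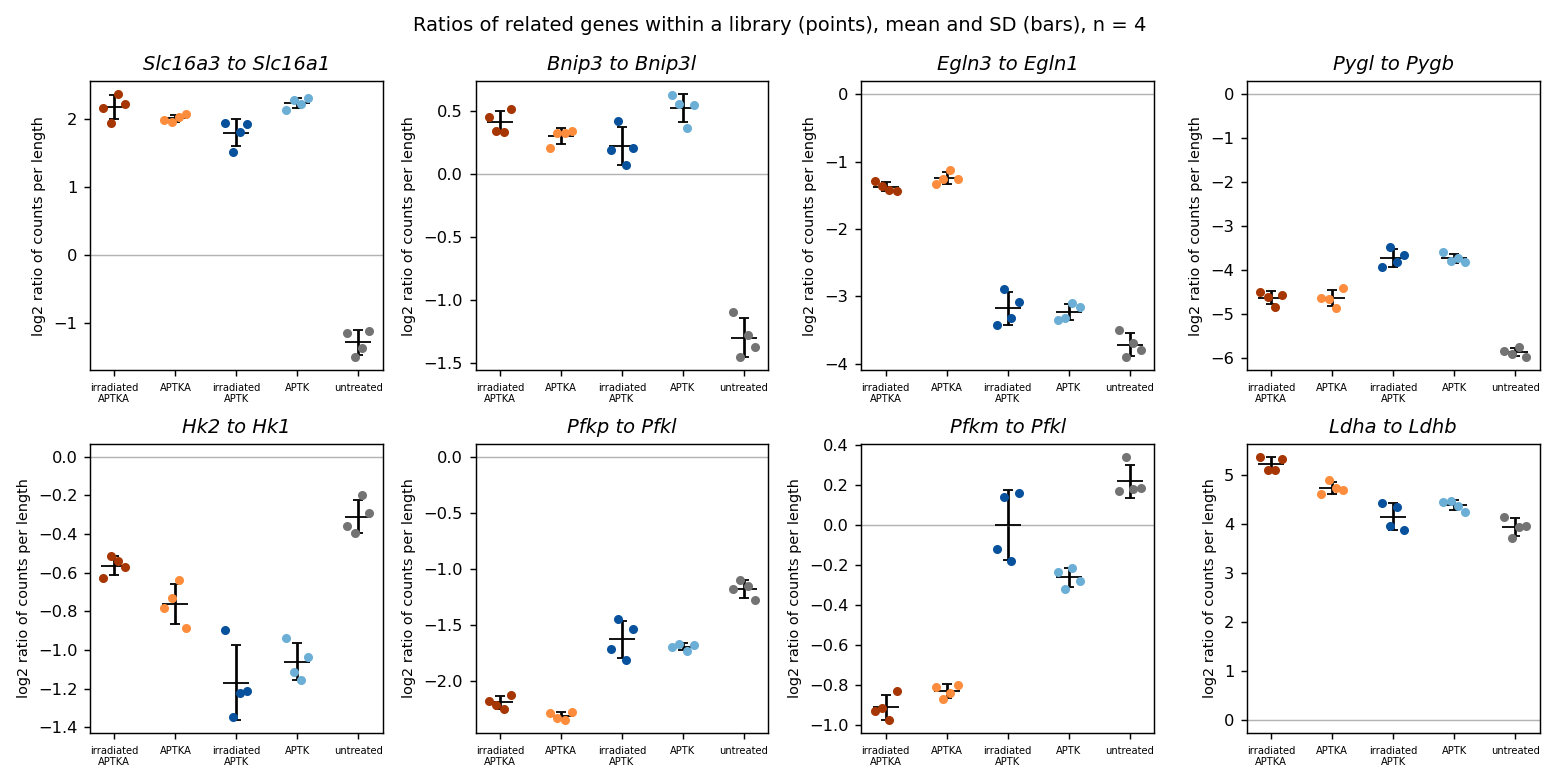
Log2 ratio of counts per exon length of 8 gene pairs in the 4 libraries of each group (points), with the mean and SD (bars); each panel has its own vertical axis. The ratio of Slc16a3 to Slc16a1 is above 0 in all medium groups and below 0 in untreated fibroblasts, the same holds for Bnip3 to Bnip3l, and Egln3 to Egln1 is set apart in both APTKA groups.

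Other genes of the same pathways, from 5 further lists, did not all follow the members. The counts of all 5 lists stand against 31.5% of all genes higher and 29.9% lower in APTKA medium. In APTK medium 20.9% of all genes were higher and 22.5% lower. The lists are short, and no list was tested as a whole. Among 25 tested genes of a list of 26 further hypoxia-induced genes, 11 were higher and 10 lower in APTKA medium and 15 higher and 4 lower in APTK medium, each relative to untreated fibroblasts. Vegfa, the vascular growth factor, rose by a log2 fold change of 0.94 ± 0.0787 (SE) in APTKA medium and 0.98 ± 0.0788 in APTK medium. The mitochondrial adenylate kinase Ak4 rose by 1.21 ± 0.0919 in APTKA medium and 2.04 ± 0.0905 in APTK medium. Going the other way, the collagen-modifying lysyl hydroxylase Plod2 fell by 1.07 ± 0.0557 on the log2 scale in APTKA medium and by 0.16 ± 0.055 in APTK medium. Its companion in collagen hydroxylation P4ha1 fell by 0.51 ± 0.0538 in APTKA medium and rose by 0.43 ± 0.0537 in APTK medium. Vldlr, a lipoprotein receptor, fell by 1.75 ± 0.0549 in APTKA medium and by 0.29 ± 0.0525 in APTK medium.

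Of 11 tested glycogen genes of a list of 12, 2 were higher and 9 lower in APTKA medium and 1 was higher and 3 lower in APTK medium, each relative to untreated fibroblasts. Ppp1r3c, which targets a phosphatase to glycogen and which was counted in the list of further hypoxia-induced genes, had the widest gap between APTKA and APTK medium of any gene in the 5 lists. Its log2 fold change was −1.69 ± 0.176 (SE) in APTKA medium over untreated fibroblasts, 1.54 ± 0.138 in APTK medium over untreated fibroblasts and −3.23 ± 0.162 in APTKA medium over APTK medium (edgeR adjusted p = 2.41e-15). Of 13 genes of pyruvate and lactate handling, 2 were higher and 8 lower in APTKA medium and 2 higher and 4 lower in APTK medium. Among these, the mitochondrial pyruvate carrier subunit Mpc1 fell by 0.86 ± 0.199 on the log2 scale in APTKA medium and by 0.79 ± 0.199 in APTK medium. Its level was low, at 1.069 CPM in APTKA medium, 1.135 CPM in APTK medium and 1.954 CPM in untreated fibroblasts. The more abundant subunit Mpc2 had a log2 fold change of −0.31 ± 0.0654 in APTKA medium. In APTK medium that of Mpc2 was −0.12 ± 0.065 and did not pass the test (edgeR adjusted p = 0.125).

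Of 9 tested oxygen-sensing genes of a list of 10, 3 were higher and 4 lower in APTKA medium and 2 higher and 3 lower in APTK medium, each relative to untreated fibroblasts. Cited2, which competes with hypoxia-inducible factors for a coactivator, rose by 1.75 ± 0.141 (SE) on the log2 scale in APTKA medium (edgeR adjusted p = 2.71e-09), and its log2 fold change was 0.17 ± 0.145 in APTK medium (edgeR adjusted p = 0.365). Epas1, the gene of the other main alpha subunit, rose by 0.56 ± 0.147 in APTK medium (edgeR adjusted p = 0.00295), and its log2 fold change was −0.00 ± 0.154 in APTKA medium (edgeR adjusted p = 0.988). Hif1a and Epas1 thus passed the test in different media. Among 12 tested genes of 19 further glycolysis enzymes and sugar transporters, 4 were higher and 2 lower in APTKA medium and 5 higher and 2 lower in APTK medium.

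The irradiated arm of each medium changed few members. In irradiated APTKA medium relative to APTKA medium, 1 member was called lower and 0 were called higher, against 0.277% and 0.452% of all genes tested. Without adjustment 10 members were higher and 1 was lower at p below 0.05 in edgeR, against 6.78% and 5.78% of all genes. DESeq2 called 4 higher and 1 lower, against 1.32% and 0.749% of all genes. The member called lower was Adm, with 53.2, 52, 48.8 and 59.7 CPM in irradiated APTKA medium, against 61.4, 70.5, 71 and 76.7 CPM in APTKA medium. The groups lay next to each other without overlap. Adm had a log2 fold change of −0.39 ± 0.0835 (SE; edgeR adjusted p = 0.0285). The call was lost without any of APTKA replicates II, III and IV or irradiated APTKA replicates I, II and III, with adjusted p between 0.0705 and 0.119 (edgeR). In irradiated APTK medium Adm had 50, 52.4, 49.6 and 61.7 CPM, against 61.8, 69.8, 69.3 and 65 CPM in APTK medium. Its log2 fold change there was −0.31 ± 0.0844 (edgeR adjusted p = 0.061).

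In irradiated APTK medium relative to APTK medium, 4 members were called lower and 0 were called higher, against 0.837% and 0.547% of all genes tested. Without adjustment 4 members were higher and 15 were lower at p below 0.05 in edgeR, against 7.86% and 7.07% of all genes. DESeq2 called 0 higher and 7 lower, against 1.41% and 1.55% of all genes. The fall of Slc2a1 was the largest of the 4. Slc2a1 had 95.3, 69.4, 78.7 and 72.8 CPM in irradiated APTK medium, against 93, 97.6, 96.5 and 96.6 CPM in APTK medium. Irradiated APTK replicate I was level with the plain libraries, so the groups overlapped. Slc2a1 had a log2 fold change of −0.28 ± 0.0689 (SE; edgeR adjusted p = 0.0391).

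Pfkl and Pdk1 followed. Pfkl had 210, 164, 208 and 179 CPM in irradiated APTK medium, against 225, 238, 222 and 225 CPM in APTK medium, and its log2 fold change was −0.26 ± 0.0622 (SE; edgeR adjusted p = 0.0381). Pdk1 had 70.7, 70.4, 64.9 and 58.4 CPM in irradiated APTK medium, against 79.8, 77.9, 75.5 and 76.2 CPM in APTK medium, and its log2 fold change was −0.23 ± 0.0558 (edgeR adjusted p = 0.0387). Neither gene overlapped between the groups, and in both the irradiated libraries spread more widely than the plain ones. Pfkp, named because it completes the 4 and so after its values were seen, had 128, 121, 119 and 123 CPM in irradiated APTK medium, against 139, 150, 133 and 141 CPM in APTK medium, with a log2 fold change of −0.20 ± 0.047 (edgeR adjusted p = 0.0325). The calls of Slc2a1, Pfkl and Pdk1 were lost on leaving out any of several single libraries, with adjusted p between 0.05 and 0.127 (edgeR). These were APTK replicates II, III and IV for all 3, APTK replicate I for Pfkl and Pdk1, irradiated APTK replicate II for Slc2a1 and Pfkl, irradiated APTK replicate III for Slc2a1 and Pdk1, and irradiated APTK replicate I for Pdk1. The same held without APTKA replicate II for Slc2a1, without irradiated APTKA replicate I for Slc2a1 and Pfkl, and without irradiated APTKA replicate III for Slc2a1 and Pdk1. When only the irradiated and plain APTK libraries were fitted, 0 members were called lower, and the adjusted p of these 3 was between 0.228 and 0.231 (edgeR).

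Gaps that did not pass the test included those of Ndrg1 and Aldoc, named after their values were seen. Ndrg1 had 58.6, 55.5, 65 and 56.8 CPM in irradiated APTKA medium, against 53.9, 44.8, 41.3 and 42.6 CPM in APTKA medium, with a log2 fold change of 0.37 ± 0.093 (SE; edgeR adjusted p = 0.0706). Aldoc had 0.989, 1.26, 0.842 and 1.01 CPM in irradiated APTK medium, against 1.88, 1.49, 1.79 and 1.78 CPM in APTK medium, with a log2 fold change of −0.78 ± 0.223 (edgeR adjusted p = 0.0778). Neither gene overlapped between the groups compared.

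By sign alone, with no test, 30 members had a positive and 8 a negative log2 fold change in irradiated APTKA medium over APTKA medium, with a median of 0.07. In irradiated APTK medium over APTK medium 10 were positive and 28 negative, with a median of −0.12. The median over all genes was 0.00 in both. Over all genes tested, 7646 were positive and 7173 negative in APTKA medium, and 7567 and 7252 in APTK medium. Of the difference between the irradiation effects in APTKA and APTK medium, tested directly for each gene, 29 members were positive and 9 negative. Over all genes tested the counts were 7366 positive and 7454 negative. For 1 member, Pfkp, the difference passed the threshold in the higher direction, and for 0 in the lower, against 0.121% and 0.0607% of all genes. Unadjusted p was below 0.05 for 15 members in the higher direction and for 0 in the lower in edgeR, against 4.72% and 4.3% of all genes. DESeq2 called 6 and 0, against 0.506% and 0.263% of all genes.

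Pfkp had 86.7, 81.2, 86 and 91.6 CPM in irradiated APTKA medium, against 79, 78.2, 76.5 and 78.2 CPM in APTKA medium. Together with its lower level in irradiated than in plain APTK medium this gave a difference of effects of 0.34 ± 0.0668 (SE) on the log2 scale (edgeR adjusted p = 0.0227). The call was lost without any of APTKA replicates II, III and IV, APTK replicates II and IV, irradiated APTKA replicates I, III and IV, or irradiated APTK replicate III, with adjusted p between 0.0514 and 0.0706 (edgeR). The differences of the same kind for Slc2a1, 0.42 ± 0.0978 (edgeR adjusted p = 0.081), and Pdk1, 0.35 ± 0.0802 (edgeR adjusted p = 0.0748), did not pass.

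**Figure D5:**
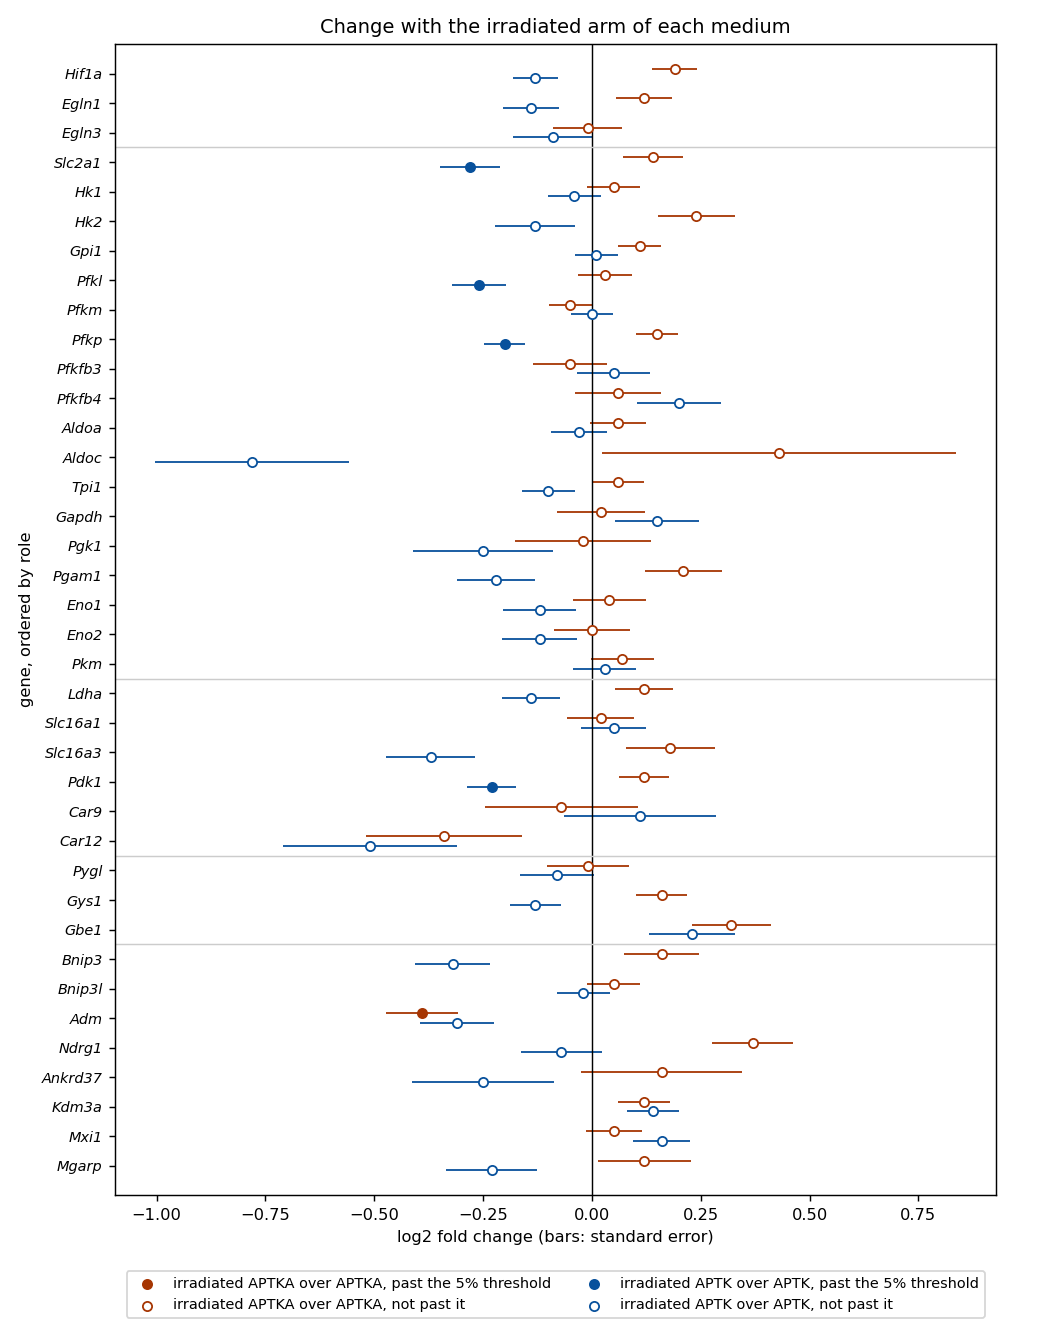
Log2 fold change with its standard error for each of the 38 members in irradiated APTKA medium over APTKA medium (brown) and in irradiated APTK medium over APTK medium (dark blue). Filled points passed the 5% threshold, which are Adm in brown and Slc2a1, Pfkl, Pfkp and Pdk1 in blue; brown points lie mostly right of 0 and blue points mostly left.

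Between the irradiated media, irradiated APTKA medium gave 8 members a higher and 18 a lower level than irradiated APTK medium, against 30.1% and 31.2% of all genes tested. The median log2 fold change was −0.14 over the members and −0.03 over all genes. By at least 2-fold, 1 member was higher and 2 were lower, against 4% and 7.34% of all genes. The largest rises were again those of Egln3, Gbe1 and Hif1a. Egln3 had 18.9, 18.6, 17.6 and 19 CPM in irradiated APTKA medium, against 6.49, 7.63, 7.05 and 6.83 CPM in irradiated APTK medium. Its log2 fold change was 1.41 ± 0.0864 (SE; edgeR adjusted p = 1.17e-13).

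Hif1a had 613, 578, 590 and 583 CPM in irradiated APTKA medium, against 349, 388, 341 and 376 CPM in irradiated APTK medium, a log2 fold change of 0.70 ± 0.0517 (SE; edgeR adjusted p = 4.88e-12). The groups were far apart. Gbe1 had 17, 16, 18.9 and 19.1 CPM in irradiated APTKA medium, against 11.3, 12.2, 11.6 and 8.47 CPM in irradiated APTK medium, a log2 fold change of 0.71 ± 0.0945 (edgeR adjusted p = 2.63e-07).

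The largest falls were those of Aldoc, Pygl and Gapdh. Aldoc had 0.432, 0.279, 0.116 and 0.179 CPM in irradiated APTKA medium, against 0.989, 1.26, 0.842 and 1.01 CPM in irradiated APTK medium, a log2 fold change of −1.97 ± 0.302 (SE; edgeR adjusted p = 2.51e-06). Pygl had 10.1, 9.47, 8.03 and 9.85 CPM in irradiated APTKA medium, against 21.7, 24.9, 22.8 and 25.7 CPM in irradiated APTK medium, a log2 fold change of −1.35 ± 0.09 (edgeR adjusted p = 7.17e-13). Gapdh had 16.1, 14.9, 14.9 and 17.8 CPM in irradiated APTKA medium, against 33.7, 24.7, 28.2 and 30.7 CPM in irradiated APTK medium, a log2 fold change of −0.88 ± 0.0987 (edgeR adjusted p = 1.39e-08). None of these 3 genes overlapped between the irradiated media.

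Slc16a3 and Bnip3, which were lower in APTKA medium than in APTK medium, did not pass the test between the irradiated media. Slc16a3 had 109, 99.5, 116 and 115 CPM in irradiated APTKA medium, against 127, 81.5, 128 and 106 CPM in irradiated APTK medium. The groups overlapped, and irradiated APTK replicate II was the lowest of all 8. Slc16a3 had a log2 fold change of −0.01 ± 0.102 (SE; edgeR adjusted p = 0.922), and the change of this difference with irradiation, 0.56 ± 0.144, did not pass the test (edgeR adjusted p = 0.146). Bnip3 had 42.6, 37.9, 39.5 and 41.5 CPM in irradiated APTKA medium, against 38.7, 57.1, 41.5 and 40.2 CPM in irradiated APTK medium. Here irradiated APTK replicate II was the highest of all 8. Bnip3 had a log2 fold change of −0.13 ± 0.0871 (edgeR adjusted p = 0.196), and the change of this difference with irradiation, 0.48 ± 0.123, did not pass either (edgeR adjusted p = 0.121). Hk2 had 64.3, 61.1, 62.9 and 64.3 CPM in irradiated APTKA medium, against 51.2, 32.5, 38.7 and 36.8 CPM in irradiated APTK medium, without overlap, and it was higher in irradiated APTKA medium by 0.67 ± 0.091 on the log2 scale (edgeR adjusted p = 7.42e-07).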

How the data were processed

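The authors deposited raw read counts per gene in whole numbers. Per the submitters' processing notes, the tools were STAR 2.5.2a and featureCounts 1.5.0-p1, with bcl2fastq 2.20.0.422 before them, on build mm10. Not given in the sources used here were annotation release, strand setting and the treatment of multiply matching reads. Symbols were matched to identifiers through GENCODE on the same assembly. In edgeR 4.0.16 (R 4.3.3), all 20 libraries were fitted together as 5 group means with TMM scaling, filtered with filterByExpr, leaving 15 residual degrees of freedom, and 7 comparisons were tested by quasi-likelihood. P-values were adjusted over the 14820 genes (Benjamini-Hochberg). The SE was derived from the fold change and its F statistic. Ratios used counts plus 0.5 per exon length, and no test. Alternatives included DESeq2 1.42.0, 2 other scalings, no filter and single libraries left out. The fit was tested on simulated data. No replicates were near-copies of each other (chi-square per degree of freedom between replicates, lowest 4.45, highest 79.93). Irradiated APTK libraries differed most from each other, at 15.56 to 79.93. The ranges were 4.45 to 12.35 in irradiated APTKA, 5.24 to 13.26 in APTKA, 5.55 to 11.88 in APTK and 8.95 to 37.61 in untreated libraries.

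Members and lists were chosen with earlier results of these data known. Described with statistics were up to 8 largest rises and 4 largest falls past the threshold in APTKA over untreated, APTK over untreated and APTKA over APTK medium. In the other comparisons it was up to 3 each way. The 9 fixed members were described in the comparisons among plain media and untreated cells.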

Additional observations from a re-analysis of the deposited data

Results flagged for a closer look

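In 8 of 190 sets of 4 libraries (38 members in 5 groups) a library lay far from the other 3 of its group by Dixon's test, and chance alone gives about 1 in 20. The mitophagy receptor Bnip3 was at 57.1 CPM in irradiated APTK replicate II, with 38.7 to 41.5 CPM in the other 3. Car12 was at 1.95 CPM in APTK replicate IV, with 1.22 to 1.34 CPM in the others. Kdm3a was at 66.3 CPM in irradiated APTK replicate IV, with 77.1 to 79 CPM in the others. Eno2 was at 14.1 CPM in APTKA replicate IV, with 15.7 to 16 CPM in the others. The remaining 4 lay in tight groups. They were Aldoa at 698 CPM in APTK replicate III (745 to 753 CPM in the others), Tpi1 at 352 CPM in APTKA replicate II (366 to 369 CPM), Pfkm at 92.9 CPM in APTK replicate IV (95.4 to 95.8 CPM) and Slc2a1 at 60.9 CPM in APTKA replicate IV (59.3 to 59.4 CPM).

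In the main fit, the phosphofructokinase gene Pfkp was the member whose response to the irradiated arm passed a test of the difference between APTKA and APTK medium. The difference was 0.34 on the log2 scale. The call was lost without any of 9 single libraries (edgeR adjusted p between 0.0514 and 0.0706), and DESeq2 called 6 members.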

How the results depend on the processing

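Members called higher and lower were recounted under 6 alternatives and without each of the 20 libraries. Without 1 library, members called higher ranged from 21 to 22 in APTKA medium and from 28 to 29 in APTK medium over untreated fibroblasts, and from 5 to 6 in APTKA over APTK medium, while members called lower ranged from 7 to 8, from 3 to 4 and from 22 to 24. In irradiated APTKA over irradiated APTK medium 7 to 9 were higher and 15 to 18 lower. In irradiated over plain APTKA medium 0 to 3 were higher and 0 to 1 lower, in irradiated over plain APTK medium 0 to 2 were higher and 0 to 5 lower, and for the difference of irradiation effects 0 to 5 were higher. In irradiated over plain APTKA medium, members called higher numbered 0, against 4 with DESeq2, 4 with no filter on low counts and 5 when only the compared groups were fitted. In irradiated over plain APTK medium, members called lower numbered 4, against 7 with DESeq2, 7 with no filter and 0 with the compared groups alone. For the difference of irradiation effects 1 was higher, against 6 with DESeq2 and 11 with no filter. These DESeq2 counts stand against 1.32%, 1.55% and 0.506% of all genes, in that order. Shares of all genes are not given here for the fits with no filter, with the compared groups alone or without 1 library. Those counts therefore do not show a change particular to the members. The causes were not tested.

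With the replicate number as a block, members called higher and lower were 21 and 8 (APTKA over untreated), 28 and 3 (APTK over untreated), 5 and 23 (APTKA over APTK), 0 and 1, 0 and 5 (irradiated over plain APTKA and APTK), 8 and 16 (irradiated APTKA over irradiated APTK), and 1 and 0 (difference of effects). Deviations of same-numbered libraries from their group means correlated only weakly, between −0.108 and 0.096. Whether the same number marks a shared animal or culture was not tested. The shares of all genes called in the fit with a block are not given here.

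Of 62 log2 fold changes of named members, 52 kept their direction and their side of the threshold in every alternative. Values near 0 changed sign: Hif1a in APTK medium over untreated fibroblasts (0.01 with upper quartile scaling), Pgk1 in APTKA over APTK medium (0.04 and 0.01 without APTKA replicates II and IV, with a range of −0.19 to 0.04 over single libraries left out) and Ldha in APTKA over APTK medium (−0.06 with upper quartile scaling, −0.00 and −0.01 without APTK replicates III and IV, with a range of −0.01 to 0.03 over single libraries left out). Hk2 in APTK medium over untreated fibroblasts passed the threshold with DESeq2 size factors, DESeq2, no filter, the compared groups alone, and without untreated replicate I or irradiated APTK replicates I or II. Gapdh in APTKA medium over untreated fibroblasts passed with no filter (adjusted p = 0.0498, edgeR) and without untreated replicate I (adjusted p = 0.0409, edgeR). Differences in gene pair ratios kept their sign when any single library was left out. That of Pfkfb4 to Pfkfb3 in APTK medium over untreated fibroblasts came nearest to a change of sign, with a range of −0.27 to −0.07. Depth limited Aldoc, Car12, Car9 and Ankrd37 most.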
